A study of Mus musculus with 6 samples.

Results

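The genes described here are the ligands and receptors of the vascular endothelial growth factor (VEGF) family: the ligand genes Vegfa, Vegfb, Vegfc and Pgf, the receptor tyrosine kinase genes Kdr, Flt1 and Flt4, and the neuropilin co-receptor genes Nrp1 and Nrp2. They were taken by symbol from the deposited gene table, which held all 9 of them among 23404 genes. The messenger RNA came from cells labelled cardiomyocytes, taken from mice of the C57BL/6J strain and sorted by flow cytometry into 2 sub-populations. One was bright in green autofluorescence, read in the FITC channel, and dim in forward scatter, a measure that grows with particle size (FITChigh). The other was dim in FITC and bright in forward scatter (FITCdim). Each gate had 3 libraries, which the series text calls biological replicates, and the title of the series names the isolation of highly pure ventricular cardiomyocytes as the purpose.

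VEGF ligands are secreted dimers that bind receptor kinases on the surface of endothelial cells. VEGF-A, the product of Vegfa, is the main signal for vessel growth and acts through VEGFR2, the product of Kdr, while VEGF-B and placental growth factor bind VEGFR1, the product of Flt1, which also acts as a decoy for VEGF-A. VEGF-C acts mainly through VEGFR3, the product of Flt4, the receptor of lymphatic endothelium that is also found on some blood vessels. Neuropilins are co-receptors shared with class 3 semaphorins. In the heart, muscle cells are known as a source of VEGF-A and VEGF-B for the capillaries around them. The question here is how the ligand genes and the receptor genes differed between the gates.

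The stretches just before the transcription start sites of the ligand genes with the most reads (Vegfa and Vegfb) and of the receptor kinase genes with the most reads (Kdr and Flt1) are shown first, because the results set these ligand and receptor genes against each other. Each is the 250 bases before the first start site that RefSeq lists in GRCm38.p6, the assembly also called mm10, written 5′ to 3′ on the gene's own strand. The windows are chr17:46032378-46032627 for Vegfa, chr19:6987652-6987901 for Vegfb, chr5:75978456-75978705 for Kdr and chr5:147726012-147726261 for Flt1, all on the minus strand. Capitals mark GGGCGG or its reverse complement CCGCCC, the GC box that Sp1 and related factors bind.
Vegfa: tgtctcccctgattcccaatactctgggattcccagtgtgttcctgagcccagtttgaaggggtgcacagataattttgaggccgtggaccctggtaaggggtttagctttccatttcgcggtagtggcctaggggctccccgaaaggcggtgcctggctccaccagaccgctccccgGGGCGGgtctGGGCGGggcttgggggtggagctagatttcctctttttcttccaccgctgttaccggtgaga
Vegfb: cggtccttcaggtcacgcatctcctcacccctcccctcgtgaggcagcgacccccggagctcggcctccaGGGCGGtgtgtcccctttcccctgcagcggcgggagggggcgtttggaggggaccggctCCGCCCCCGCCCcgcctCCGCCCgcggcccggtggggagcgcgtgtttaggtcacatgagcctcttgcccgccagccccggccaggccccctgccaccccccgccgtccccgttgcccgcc
Kdr: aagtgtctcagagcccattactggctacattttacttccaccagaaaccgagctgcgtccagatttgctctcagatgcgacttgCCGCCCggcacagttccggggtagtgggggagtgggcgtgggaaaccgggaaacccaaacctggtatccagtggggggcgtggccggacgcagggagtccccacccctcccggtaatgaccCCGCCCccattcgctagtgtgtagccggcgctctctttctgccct
Flt1: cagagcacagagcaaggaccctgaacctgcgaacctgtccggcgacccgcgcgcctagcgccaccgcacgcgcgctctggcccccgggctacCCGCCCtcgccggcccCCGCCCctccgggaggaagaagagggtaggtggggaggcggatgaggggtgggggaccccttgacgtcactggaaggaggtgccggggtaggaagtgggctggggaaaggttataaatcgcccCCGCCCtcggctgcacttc

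GGGCGG on either strand was present before the first start site of all 9 genes, and in 10 of the 11 windows that RefSeq lists for them. Over all 32841 windows of this length in the mouse table it was present in 32.7%. The 4 printed windows were 59.2% (Vegfa), 76.4% (Vegfb), 61.6% (Kdr) and 70.4% (Flt1) G or C, against a median of 52.4% over all windows, and the base composition is shared by many housekeeping promoters. The core letters of a hypoxia element, ACGTG or GCGTG on either strand, were in 7 of the 11 windows and in 38.6% of all windows. GGAA, the core of the sites bound by ETS factors, was in 9 of the 11 windows and in 93.5% of all, so its presence sets nothing apart. TATAAA was found before Flt1 alone, with 12.4% of all windows holding it. These are matches of letters in a short window, each counted regardless of overlap with another motif, and say nothing about binding.

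Values of a gate's libraries are always given in the order of replicates 1, 2 and 3. They are adjusted read counts, the unit of the deposited table, in which read counts were brought to a common library size without division by gene length. Depth ran from 1589825 to 2931045 recovered reads per FITChigh library and from 1705626 to 3345996 per FITCdim library. All 20 cardiomyocyte markers on the list used here were detected in both gates, and their summed level was 478300 to 519300 adjusted read counts in FITChigh and 316600 to 370700 in FITCdim. The 20 endothelium markers, none of which is a VEGF gene, summed to 779 to 1072 in FITChigh and 5266 to 6098 in FITCdim. Fewer cells of a type and less RNA per cell cannot be told apart in such bulk samples.

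Of the 9 genes, 1 was higher in FITChigh (Vegfa), 7 were lower (Vegfc, Pgf, Kdr, Flt1, Flt4, Nrp1 and Nrp2) and 1 did not pass the test (Vegfb). The test was limma-trend on log2(adjusted read count + 1) over all 12907 genes that reached a value of 1 in at least 3 libraries, with Benjamini-Hochberg adjustment at 0.05. All 9 genes passed that filter, Pgf through FITCdim alone, so that Pgf had to differ and its call is a description only (341 of all tested genes passed in this way). Over all tested genes 2.51% were called higher (324) and 13.5% lower (1748), and the median log2 difference was -0.01 against -2.32 over the 9 genes. That -2.32 is the fitted value of Pgf itself, and with a pseudocount of 5 in place of 1 the median of the 9 was -1.57. The split of calls moved with the scaling of the libraries. With each library brought to one common total, 41 genes were higher and 2189 lower, and the median of all genes moved to -0.20. After quantile normalization, 467 were higher and 1213 lower, and that median was 0.13. In 7 genes all FITChigh values lay below all FITCdim values, which held for 20.2% of all tested genes, and in Vegfa they lay above, which held for 11.4%.

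**Figure D1:**
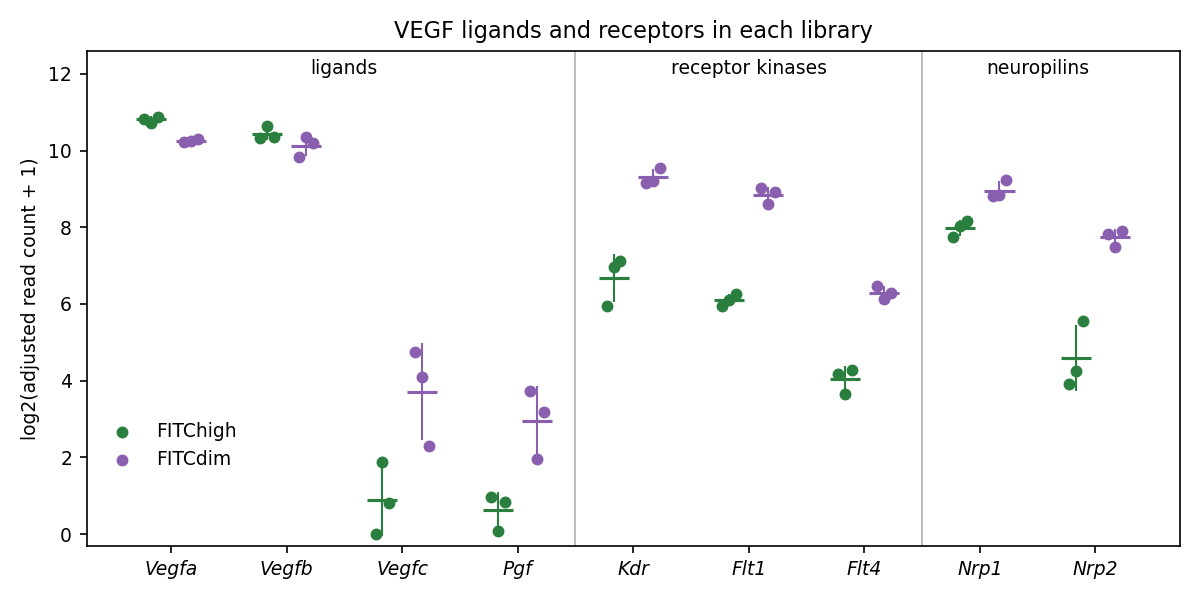
Level of each VEGF gene in each library, as log2(adjusted read count + 1). Points are libraries, 3 per gate, horizontal bars are means and vertical bars 1 SD. Vegfa and Vegfb sit near the top in both gates, and the FITChigh points of the other 7 genes lie below the FITCdim points.

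Vegfa, which encodes VEGF-A (chromosome 17, 46016993 to 46032369 in mm10, minus strand), was the ligand gene that was called higher. Its adjusted read counts were 1814, 1693 and 1885 in the FITChigh libraries and 1200, 1223 and 1251 in the FITCdim libraries. The gates did not overlap, and the 3 FITCdim libraries lay close together. The means were 1797 ± 96.8 and 1225 ± 25.5 (± SD, n = 3 per gate). The log2 difference was 0.55 (SE 0.12), a 1.47-fold higher level, with a limma-trend adjusted p of 0.0052. This call rests on the scaling, since the difference was 0.35 (adjusted p = 0.068) with a common total and 0.25 (adjusted p = 0.19) after quantile normalization. Over the 15 alternatives tried, the adjusted p ran from 1.4e-04 to 0.19.

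Vegfb, which encodes VEGF-B (chromosome 19, 6982473 to 6987651, minus strand), showed no difference past the test. It stood at 1281, 1598 and 1306 adjusted read counts in the FITChigh libraries and at 915, 1300 and 1171 in the FITCdim libraries. The gates overlapped, because FITCdim replicate 2 stood above FITChigh replicate 1. The log2 difference was 0.31 (SE 0.15, limma-trend adjusted p = 0.19), with a 95% interval from -0.01 to 0.63 that includes the size of the difference in Vegfa. It was 0.11 (adjusted p = 0.70) with a common total and 0.06 (adjusted p = 0.81) after quantile normalization. Taken by replicate number, which follows the title tags, the FITChigh value was the higher each time. With the tag as a block, the difference was called (0.31, limma-trend adjusted p = 0.016). The labels do not say what the tag marks.

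Vegfa and Vegfb were then set against the summed cardiomyocyte markers of the same library, a ratio that does not change when a library is multiplied by a constant. It was not computed after quantile normalization. Before log2 was taken, 1 was added to the gene's adjusted read count, but not in the ratios per 1000 printed here. The tested log2 ratios can therefore shift slightly with such a constant. Vegfa stood at 3.49, 3.28 and 3.94 adjusted reads per 1000 of the markers in the FITChigh libraries and at 3.79, 3.37 and 3.38 in the FITCdim libraries. The gates overlapped, and the mean log2 ratio differed by 0.02 (exact two-sided permutation p = 0.7, 20 assignments). Leaving out each library in turn gave differences from -0.05 to 0.08. The marker sum itself was 1.44-fold higher in FITChigh, beside the 1.47-fold of Vegfa. That sum is weighted to the most abundant markers. Myh6 alone averaged 159500 of a mean sum of 504800 in FITChigh. Its log2 difference was 0.75, against a median of 0.46 and a range of 0.12 to 0.91 over the markers. For Vegfb the ratios were 2.47, 3.09 and 2.73 in the FITChigh libraries and 2.89, 3.58 and 3.16 in the FITCdim libraries, again with overlap. Their mean log2 ratio differed by -0.22 (exact two-sided permutation p = 0.2). Taken by replicate number, which follows the title tags, the FITChigh ratio of Vegfb was the lower each time. No paired test of the ratios was run.

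Vegfc, whose product is the main ligand of VEGFR3, and Pgf, which encodes placental growth factor, were scarce. Vegfc (chromosome 8, 54077606 to 54187096, plus strand) had 0, 2 and 1 recovered reads in the FITChigh libraries and 40, 13 and 3 in the FITCdim libraries. Its adjusted read counts were 0, 2.69 and 0.755 in FITChigh against 25.9, 16.1 and 3.91 in FITCdim. The gates did not overlap, though the lowest FITCdim library came close to the highest FITChigh library. The fitted log2 difference was -2.82 (SE 0.63, limma-trend adjusted p = 0.0052), and -1.57 with a pseudocount of 5. Without FITCdim replicate 1, the deepest library, the call was lost (difference -2.30, adjusted p = 0.068).

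Pgf (chromosome 12, 85166635 to 85177790, minus strand) had 1, 0 and 1 recovered reads in the FITChigh libraries and 19, 2 and 7 in the FITCdim libraries. Summed over a gate and taken per total reads, the FITChigh level was 0.0698 of the FITCdim level, with an exact 95% counting interval from 0.00806 to 0.277. The same ratio was 0.0524 for Vegfc, with an interval from 0.0105 to 0.161. These intervals cover counting error alone. The fitted difference of Pgf was -2.32 (SE 0.56, limma-trend adjusted p = 0.0082) and -1.12 with a pseudocount of 5. It was -1.94 (adjusted p = 0.067) without FITCdim replicate 1 and -1.50 (adjusted p = 0.068) after quantile normalization. Figf, the table's symbol for the gene of VEGF-D, which is not among the 9 genes, had 3, 2 and 7 reads in FITChigh and 5, 7 and 5 in FITCdim, and was not called (adjusted p = 0.71).

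Kdr, which encodes VEGFR2 (chromosome 5, 75932827 to 75978458, minus strand), was far lower in FITChigh in every library. It stood at 60.8, 125 and 137 adjusted read counts in the FITChigh libraries and at 569, 587 and 746 in the FITCdim libraries. No values overlapped, and the lowest FITCdim library was well above the highest FITChigh library. The fitted level in FITCdim was 6.16-fold that in FITChigh (log2 difference -2.62, SE 0.23, limma-trend adjusted p = 1.1e-06).

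Flt1, which encodes VEGFR1 (chromosome 5, 147561604 to 147726011, minus strand), stood at 61.0, 67.7 and 75.9 adjusted read counts in the FITChigh libraries and at 516, 386 and 481 in the FITCdim libraries. The FITChigh libraries were tightly grouped and lay below all FITCdim libraries. The fitted difference was 6.65-fold (log2 -2.73, SE 0.16, limma-trend adjusted p = 3.7e-08). One value per gene was deposited, so the membrane and the soluble form of VEGFR1, and likewise the splice forms of VEGF-A, are summed.

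Flt4, which encodes VEGFR3 (chromosome 11, 49609263 to 49652739, plus strand), was the receptor kinase gene with the fewest reads, 48 over FITChigh and 266 over FITCdim. Its adjusted read counts were 17.2, 11.6 and 18.5 in the FITChigh libraries and 88.1, 68.5 and 76.5 in the FITCdim libraries, without overlap. The fitted level in FITCdim was 4.76-fold that in FITChigh (log2 difference -2.25, SE 0.25, limma-trend adjusted p = 9.9e-06). Of 6 lymphatic endothelium markers 5 were tested, 3 were lower (Pdpn, Lyve1 and Mmrn1) and 2 did not pass, beside 13.5% called lower over all tested genes. Without FITCdim replicate 1, only 1 marker of the list was still called lower. Pdpn was tested through FITCdim alone, so its call is a description. Their sum was 56.0 to 121 in FITChigh and 125 to 204 in FITCdim. In FITChigh most of it was Prox1, a transcription factor of lymphatic endothelium that cardiac muscle also expresses (70.6 ± 38.5 against 79.4 ± 23.9, ± SD, n = 3 per gate, not called). In FITCdim Lyve1 held a large share as well, at 58.7 ± 46.4 against 7.37 ± 5.43 in FITChigh. Pdpn was listed at 0 in all FITChigh libraries, and Ccl21a, the untested marker, was listed at 0 in all libraries of both gates. The part of lymphatic cells in the Flt4 result was not tested.

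The neuropilin genes differed from each other. Nrp2 (chromosome 1, 62703285 to 62818695, plus strand), a co-receptor of VEGF-C and of semaphorin 3F, stood at 14.1, 18.2 and 46.0 adjusted read counts in the FITChigh libraries and at 225, 179 and 239 in the FITCdim libraries. FITChigh replicate 3 was the highest of its gate but still far below every FITCdim library. The fitted difference was 8.94-fold (log2 -3.16, SE 0.31, limma-trend adjusted p = 3.1e-06), and without FITChigh replicate 3 the log2 difference was -3.65.

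Nrp1 (chromosome 8, 128358604 to 128503363, plus strand), a co-receptor of VEGF-A and of semaphorin 3A, stood at 215, 262 and 283 adjusted read counts in the FITChigh libraries and at 447, 455 and 599 in the FITCdim libraries. The gates did not overlap, but the distance was much smaller than in Kdr or Nrp2. The fitted difference was 1.97-fold (log2 -0.97, SE 0.15, limma-trend adjusted p = 3.0e-04), with a 95% interval from -1.30 to -0.65.

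The differences can be read beside those of the endothelium markers. All 20 of these markers were lower in FITChigh, with log2 differences from -3.14 to -1.89 and a median of -2.56. Kdr, Flt1 and Flt4 lay inside that range, with 9, 7 and 16 of the 20 markers showing a larger fall. Nrp1 fell by less than any of them, under all 15 alternatives too. Nrp2, at -3.16, lay at the lower end of the range, beyond the lowest marker in 9 of the 15 alternatives and inside the range in 6. All 20 cardiomyocyte markers had log2 differences above 0, from 0.12 to 0.91 with a median of 0.46. Of them 4 were called higher, beside 2.51% of all tested genes. Vegfa and Vegfb lay inside that range. The direction of the cardiomyocyte markers rests on the scaling, since 18 of 20 were above 0 with a common total (2 called) and 12 of 20 after quantile normalization (0 called), and 0 were called without FITCdim replicate 1. The endothelium markers were all lower under each scaling.

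**Figure D2:**
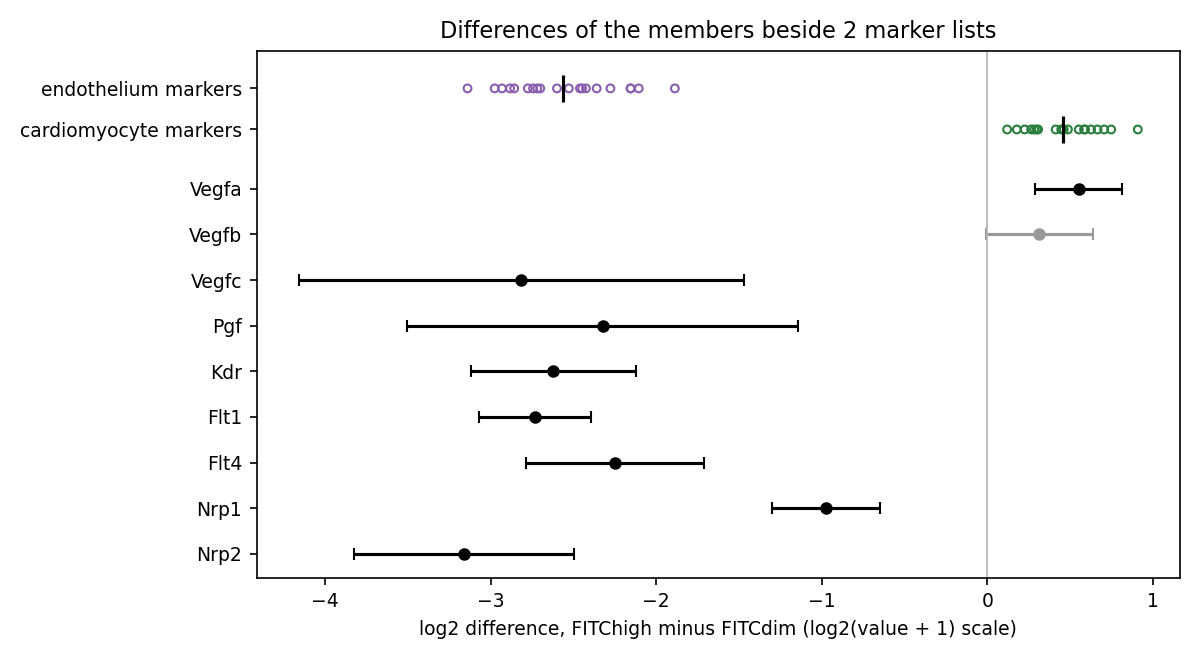
Fitted log2 difference (FITChigh minus FITCdim) of each VEGF gene, with 95% intervals, below open circles for the 20 endothelium and 20 cardiomyocyte markers, whose medians are vertical ticks. Black points passed the limma-trend test and the grey point (Vegfb) did not. Nrp1 at -0.97 stands between the marker lists.

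Receptors were also set against the summed endothelium markers of the same library. That sum too is weighted to abundant markers, with Fabp4 averaging 1225 and Cdh5 976 of a mean of 5614 in FITCdim. Over Pecam1 alone, Kdr averaged 1.13 ± 0.39 in FITChigh and 1.07 ± 0.37 in FITCdim (± SD, n = 3 per gate). Flt1 over Pecam1 averaged 0.737 ± 0.13 and 0.759 ± 0.155. Kdr stood at 78.1, 116 and 143 adjusted reads per 1000 of the markers in the FITChigh libraries and at 93.4, 107 and 142 in the FITCdim libraries. The gates covered the same range, and the mean log2 ratio differed by -0.03 (exact two-sided permutation p = 1), with -0.22 to 0.21 when each library was left out in turn. Flt1 stood at 78.4, 63.2 and 79.2 in the FITChigh libraries and at 84.6, 70.4 and 91.4 in the FITCdim libraries. The gates overlapped, though for each replicate number the FITChigh ratio was the lower. The difference was -0.14 (exact two-sided permutation p = 0.4, and -0.25 to -0.03 with a library left out). Flt4 stood at 10.8 to 22.1 and 12.5 to 14.5 (difference 0.34, exact two-sided permutation p = 0.4, and 0.14 to 0.64 with a library left out). As for the ligands, the log2 differences of all receptor ratios include 1 added to the gene's adjusted read count. The printed ratios do not, which matters most for genes with few reads, such as Flt4 and Nrp2. A difference of the size these small groups could hide is not excluded by such p-values.

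Against the same markers Nrp1 stood at 276, 245 and 295 per 1000 in the FITChigh libraries and at 73.4, 83.0 and 114 in the FITCdim libraries. Every FITChigh library was above every FITCdim library, and the mean log2 ratio differed by 1.62 (1.48 to 1.80 when each library was left out). The exact two-sided permutation p was 0.1, the smallest that 3 against 3 libraries allow, and 0.3 after Benjamini-Hochberg adjustment over the 9 ratios tested. Nrp2 stood at 18.2, 17.02 and 47.9 in the FITChigh libraries and at 37.0, 32.7 and 45.4 in the FITCdim libraries. FITChigh replicate 3 was the highest of the 6 and the other FITChigh libraries the lowest, so the gates overlapped (difference -0.57, exact two-sided permutation p = 0.4). Leaving out each library gave -1.03 to -0.31, with -1.03 and no overlap without FITChigh replicate 3.

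**Figure D3:**
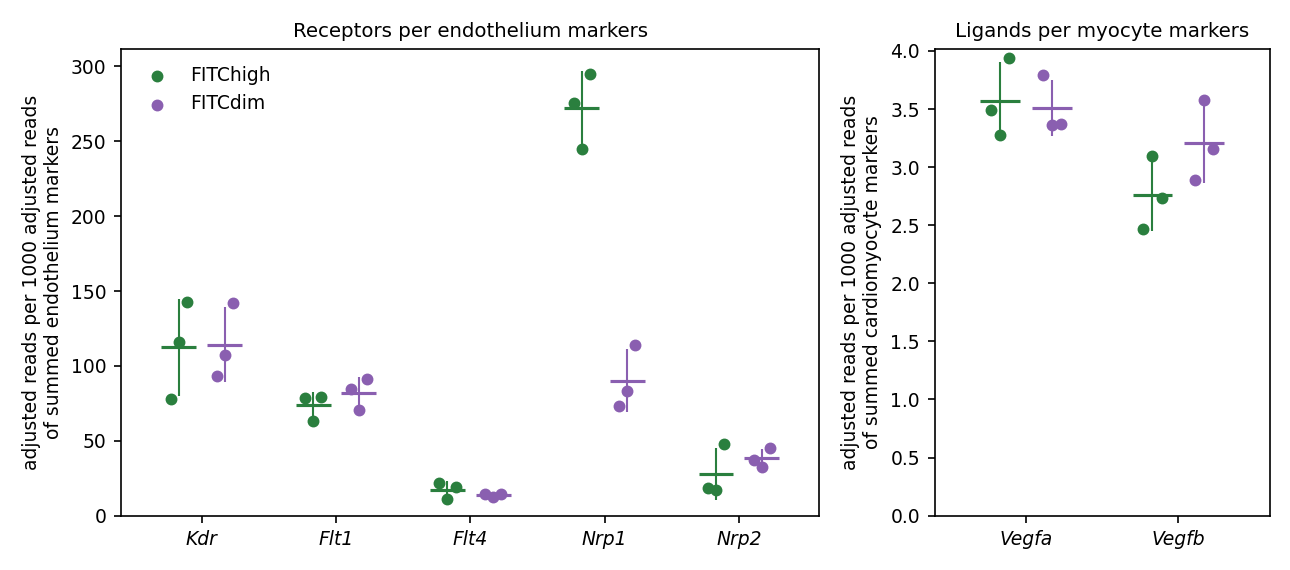
Left, adjusted reads of each receptor gene per 1000 adjusted reads of the summed endothelium markers. Right, Vegfa and Vegfb per 1000 of the summed cardiomyocyte markers. Points are libraries, horizontal bars means and vertical bars 1 SD (3 libraries per gate). Of the 7 genes, Nrp1 alone shows gates that do not overlap.

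Ligand and receptor were compared within each library as well. Per adjusted read count of Kdr there were 29.8, 13.6 and 13.7 of Vegfa in the FITChigh libraries and 2.11, 2.08 and 1.68 in the FITCdim libraries. FITChigh replicate 1 was the highest, and the gates were far apart. The means of this ratio were 19.1 ± 9.34 and 1.96 ± 0.243 (± SD, n = 3 per gate). Vegfb over Flt1 gave 20.6 ± 3.22 and 2.53 ± 0.80 (± SD, n = 3 per gate), also without overlap. Both had an exact two-sided permutation p of 0.1, the smallest possible, and 0.2 after adjustment over the 8 pairs of genes compared. Both separations follow from the values of the single genes given above, so these p-values add no further support.

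Pairs of receptor genes behaved differently. Kdr over Flt1 averaged 1.55 ± 0.48 in FITChigh libraries and 1.39 ± 0.25 in FITCdim libraries (± SD, n = 3 per gate; exact two-sided permutation p = 0.6). Nrp1 over Kdr was 3.53, 2.11 and 2.07 in the FITChigh libraries against 0.786, 0.775 and 0.803 in the FITCdim libraries (exact two-sided permutation p = 0.1, adjusted 0.2). Nrp1 thus had more reads than Kdr in every FITChigh library and fewer in every FITCdim library.

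Levels of different genes were compared per kilobase of exon (all GENCODE M21 exons of the gene merged). Vegfb led both gates, with 869 ± 110 adjusted read counts per kilobase in FITChigh and 703 ± 122 in FITCdim (± SD, n = 3 per gate), and Vegfa followed with 419 ± 22.6 and 286 ± 5.94. In FITChigh the order went on with Nrp1 (25.9 ± 3.59), Kdr (11.9 ± 4.53) and Flt1 (5.05 ± 0.55), then Nrp2 (2.21 ± 1.46) and Flt4 (1.91 ± 0.45), whose values overlapped. In FITCdim, Kdr (70.2 ± 10.8) stood above Nrp1 (51.1 ± 8.76), followed by Flt1 (34.1 ± 5.00), Nrp2 (18.1 ± 2.67) and Flt4 (9.44 ± 1.20). Vegfc and Pgf were last in both gates, overlapping each other, and in FITCdim Flt4 overlapped Vegfc. All other neighbours in these orders were separated in all 3 libraries. The order depends on which exons a gene is given, and Vegfb has the shortest exon length of the 9 (1605 bases) and Flt1 the longest (13504 bases).

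The genes with the most similar profile over the 6 libraries were found by the root mean square distance between log2 profiles, each centred on its own mean, among 6302 genes above the median level. Vegfa was closest to Eif2s3y, Mccc1 and Tob1, at 0.05 to 0.06 log2 units, and Vegfb to Edf1, Taf11 and Stau2. Kdr was closest to Cxcl12, a chemokine gene, with Akap12 and Ablim3 next (0.13 to 0.14). Flt1 was closest to Dab2, an endocytic adaptor, and Fbn1, and Flt4 to Cald1, Tuba1a and Rgs3. Nrp2 was closest to Gimap4, at 0.11, and Nrp1 to Tmem184b, Smad7 and Gopc (0.08 to 0.09). The 6 libraries share 2 gates, so most genes that differ by a like amount come close by this measure.

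Other genes act with the receptors at the membrane. Of 15 such genes tested, 6 were lower, 0 higher and 9 did not pass (median log2 difference -0.31). The shares over all tested genes were 13.5% called lower and 2.51% called higher. Cdh5, the cadherin of endothelial junctions that binds VEGFR2, stood at 160 ± 22.6 adjusted read counts in FITChigh and was far higher, at 976 ± 171, in FITCdim (± SD, n = 3 per gate; log2 -2.60, limma-trend adjusted p = 3.7e-08). Ptprb, the endothelial phosphatase VE-PTP, differed by -3.06 (adjusted p = 3.7e-08) and Dab2 by -2.67 (adjusted p = 2.0e-07). The most abundant by reads, the integrin gene Itgb1, stood at 1107 ± 72.0 against 1318 ± 113 (± SD, n = 3 per gate) and was not called (adjusted p = 0.22). It was called lower with a common total (-0.45, adjusted p = 0.020) and after quantile normalization (-0.49, adjusted p = 0.014). Itgb1 stayed uncalled in 12 of the 15 alternatives. With the title tag as a block, 7 genes of the list were called lower.

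Genes of the signal below the receptors mostly did not pass. Of 33 tested among 35, 9 were lower, 0 higher and 24 not called (median -0.12), beside 13.5% called lower over all tested genes. Nos3, the endothelial nitric oxide synthase, stood at 16.8 ± 3.72 adjusted read counts in FITChigh and 138 ± 20.5 in the other gate (± SD, n = 3 per gate; log2 -2.97, adjusted p = 2.2e-07 by limma-trend). Prkcb, a protein kinase C gene, differed by -1.92 (adjusted p = 0.032) and Cbl, a ubiquitin ligase that acts on receptor kinases, by -1.78 (adjusted p = 0.0076). Both calls were lost without FITCdim replicate 1 (adjusted p 0.18 and 0.083), when 4 genes of the list were called. The call of Prkcb was also lost after quantile normalization and without FITChigh replicate 1 or FITCdim replicate 2, and that of Cbl without FITCdim replicate 3. Mapkapk2, the kinase with the most reads of the list, stood at 752 ± 38.7 against 707 ± 48.4 (± SD, n = 3 per gate; adjusted p = 0.70).

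Genes known to respond to VEGF in endothelium followed in part. Of 10 tested among 12, 5 were lower, 0 higher and 5 not called (median -1.58), beside 13.5% called lower over all tested genes. The apelin receptor gene Aplnr differed by -2.82 (adjusted p = 5.5e-07), the transcription factor gene Egr3 by -2.69 (0.0052) and the Notch ligand gene Dll4 by -2.68 (1.9e-05), all adjusted p from limma-trend. Nr4a1, an immediate-early nuclear receptor gene with the most reads of the list, stood at 577 ± 27.5 against 746 ± 55.5 (± SD, n = 3 per gate). It missed the threshold (adjusted p = 0.056), which it passed as lower with a common total (-0.57, adjusted p = 0.0033) and after quantile normalization (-0.52, adjusted p = 0.0071). Nr4a1 stayed uncalled in 12 of the 15 alternatives. With the title tag as a block, 6 genes of the list were called lower. The call of Egr3 was lost without FITCdim replicate 1 (adjusted p = 0.066).

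Of 11 tested class 3 semaphorin and plexin genes, the other ligands and partners of neuropilins, 5 were lower, 0 higher and 6 not called (median -0.65). Over all tested genes 13.5% were called lower. Plxnd1, a plexin of endothelium with the most reads, stood at 206 ± 44.1 adjusted read counts in FITChigh and 499 ± 58.0 in the other gate (± SD, n = 3 per gate; log2 -1.29, limma-trend adjusted p = 3.7e-05). Sema3d differed by -3.06 (adjusted p = 4.0e-04), Sema3f by -2.90 (6.4e-06) and Sema3g by -1.97 (4.5e-04). Among 6 genes of VEGF-C and VEGF-D processing, Figf included, only the convertase gene Pcsk5 was called (-2.50, adjusted p = 0.0026), and it was lower. Beside the 13.5% over all tested genes, 1 of 6 does not set this list apart. The most abundant of them by reads, Furin, stood at 301 ± 62.7 against 326 ± 34.0 (± SD, n = 3 per gate; not called).

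Of 14 tested regulators of the ligand genes, 1 was higher, 4 lower and 9 not called (median 0.03). Over all tested genes 2.51% were called higher and 13.5% lower. Esrra, a nuclear receptor gene that works with PGC-1 coactivators in oxidative metabolism and in the control of Vegfa, was the higher one, at 445 ± 48.5 adjusted read counts in FITChigh and 319 ± 11.7 in the other gate (± SD, n = 3 per gate; log2 0.47, limma-trend adjusted p = 0.023). That call was lost with a common total (0.27, adjusted p = 0.21), after quantile normalization (0.37, adjusted p = 0.073) and when FITChigh replicate 1 or 2 or FITCdim replicate 1 or 3 was left out (adjusted p up to 0.12). Sp1, a GC box factor, differed by -1.10 (adjusted p = 0.0012), Zfp36l1, which destabilises Vegfa messenger RNA, by -0.64 (0.0024) and Epas1, the hypoxia-inducible factor most abundant in endothelium, by -0.51 (0.023). The call of Epas1 was lost when any of the same 4 libraries was left out (adjusted p up to 0.10). Zfp36, a relative of Zfp36l1, was also lower (-0.47, adjusted p = 0.017, lost when FITChigh replicate 1 or FITCdim replicate 1 or 2 was left out). Leaving out FITChigh replicate 1 or FITCdim replicate 1 left 2 genes of the list called lower. Egln1, an oxygen-sensing hydroxylase gene with the most reads of the list, stood at 1713 ± 47.5 against 1478 ± 112 (± SD, n = 3 per gate; adjusted p = 0.29), and Hif1a at 234 ± 45.7 against 229 ± 23.4 (± SD, n = 3 per gate; adjusted p = 0.96).

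**Figure D4:**
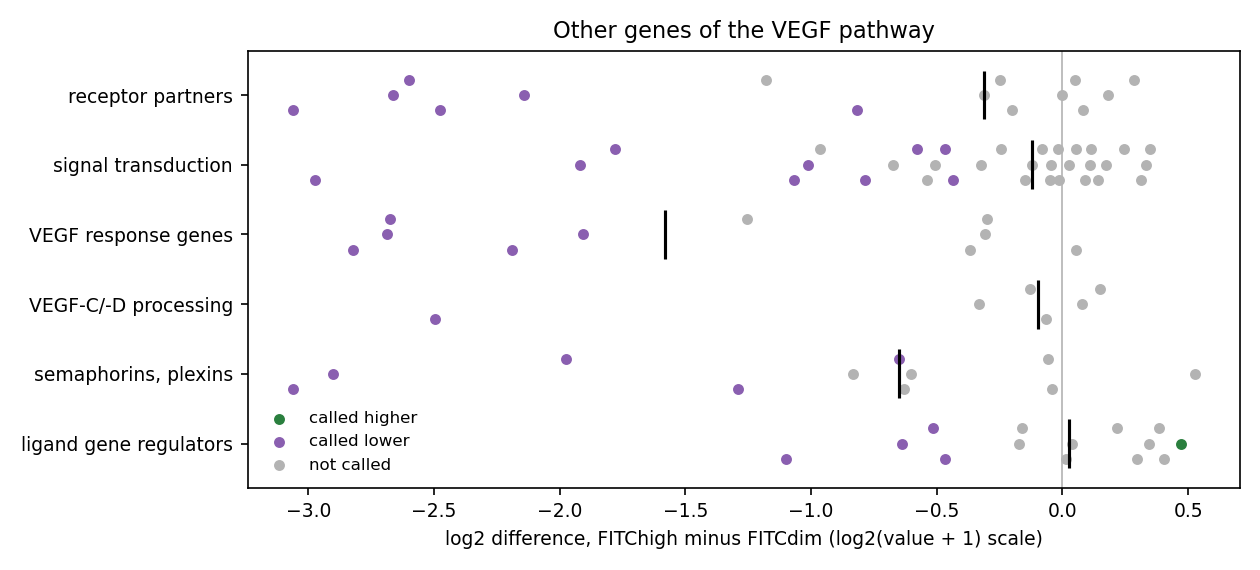
Log2 difference (FITChigh minus FITCdim) of the other genes of the pathway, by list. Each point is a gene, coloured by its limma-trend call, and black ticks are list medians. Called genes lie to the left in each list, with Esrra at 0.47 the exception.

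Markers of most other cell types on the lists used here were lower in FITChigh, like the receptors, the neuropilins, Vegfc and Pgf. The share called lower over all tested genes was 13.5%. All 9 tested of 10 fibroblast markers were lower in FITChigh, with a summed level of 106 to 137 adjusted read counts against 583 to 1050 in FITCdim, and 1 of the 10 was listed at 0 in all FITChigh libraries. All 10 macrophage and leukocyte markers were lower (91.6 to 125 against 466 to 1075, none at 0). Of 8 pericyte markers 7 were lower (1051 to 1586 against 1398 to 1997, a sum that Abcc9, also expressed in muscle, dominates). Of 6 smooth muscle markers 4 were lower (846 to 958 against 1138 to 1348). Most of that sum came from Smtn (mean 564 against 527) and Acta2 (304 against 414), which were not called. The gates overlapped in Cnn1, which was called lower (limma-trend adjusted p = 0.044). Of 5 endocardium markers 4 were lower (172 to 213 against 534 to 1064), and all 5 tested of 6 epicardium markers were lower (5.68 to 8.64 against 70.8 to 167). All 7 tested of 8 atrial myocyte markers were lower (205 to 455 against 1216 to 2574). Of 5 Schwann cell markers 2 were tested, both with differences above 0 (0.36 and 0.37, not called), and their sum was 12.42 to 17.98 against 9.39 to 22.5. Of 5 erythroid markers 1 was tested, and it was lower (1.86 to 7.43 against 11.8 to 27.2 for the list). That call was lost after quantile normalization and without FITCdim replicate 1 or 3. A pericyte marker (Higd1b) and an epicardium marker (Upk1b) were tested through FITCdim alone. Because most of these lists moved together, the part of each cell type in the difference of any VEGF gene was not tested.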

How the data were processed

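Polyadenylated RNA of 6 sorted libraries was sequenced with a strand-specific kit as paired reads of 75 bp, per the labels' protocols. STAR 2.5, edgeR and the build mm10 are named in the submitters' processing notes. How reads were counted, with which annotation, and whether strand was used is not given in the sources used here. Each library has 1 deposited signal value per gene, an adjusted read count made by the authors that is neither a raw count nor CPM. Of 23410 gene lines 6 were garbled and left out. Columns were matched to samples by title, and replicates are numbered in accession order. Nothing in the labels says that the libraries came from separate animals beyond the series text, so p-values reflect only how these libraries spread.

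Reads behind the values were recovered as the inverse of a quantile adjustment between negative binomials (common dispersion 0.0203). All values (100%) were reproduced within 0.05 adjusted counts plus a 1-in-10000 share of the value. One read was worth 0.607 to 1.54 adjusted counts. Recovered reads served for depth, counting intervals and 1 alternative test.

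The test over genes was limma-trend, two-sided and without a block (limma 3.58.1, R 4.3.3). On simulated reads for this comparison (12998 genes tested, 200 changed) 2-fold changes were found in 43% of cases and 4-fold changes in 81%, and 3.88% of the calls were false. The simulation used an assumed dispersion and changes in random directions. It therefore does not cover the dependence of the calls on scaling. Ratios were tested by exact permutation. Named genes are the 9 members and, in each other list, the gene with the highest mean plus at most 3 called genes with the largest change. Others were chosen after their values were seen. The members and lists were chosen with earlier results of these data known. Libraries of a gate differed beyond sampling noise (chi-square of 3.87 to 6.60 per degree of freedom).

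Positions and exon lengths are from GENCODE M21 and start site windows from RefSeq (GRCm38.p6). All 9 members matched there. Gm29083, an antisense gene, overlaps Nrp2, and its reads cannot be told apart without knowing the use of strand. Gm37121 overlaps Nrp2 on the same strand, so the use of strand would not separate it. Mir1903, a microRNA gene listed in the deposited table, overlaps Nrp1 on the same strand.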

Additional observations from a re-analysis of the deposited data

How the results depend on the processing

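Kdr, Flt1, Flt4, Nrp1 and Nrp2 kept their direction and call under all 15 alternatives, with adjusted p-values of at most 0.0035. Members called lower numbered 5 to 7. Members called higher numbered 0 with a common total and after quantile normalization, where Vegfa differed by 0.35 and 0.25, and 2 with the title tag as a replicate block, where Vegfb was called as well (0.31, adjusted p = 0.016). Pgf fell to -1.50 after quantile normalization. Leaving out each library in turn gave -3.53 to -2.30 for Vegfc and -2.82 to -1.94 for Pgf, with both calls lost without FITCdim replicate 1. Genes called higher over the whole table numbered 41 with a common total, 1064 with the replicate block and 67 to 337 with a library left out (67 and 184 without FITChigh replicates 1 and 2, 85 and 215 without FITCdim replicates 1 and 3). Genes called lower numbered 1156 to 1667 with a library left out, the lowest without FITCdim replicate 1. A common total changes only how libraries are scaled, and fewer libraries leave fewer degrees of freedom. Other causes were not tested. Libraries whose titles share a tag deviated together at 0.07, 0.13 and 0.18 (correlation across genes), and each correlated best with the library of its own tag. The labels do not say what the tag marks, so it was not taken as pairing. The strict filter of 10 left Vegfc and Pgf untested. Count tests with DESeq2 or the edgeR quasi-likelihood method were planned and not run. The deposited values are not counts, and the recovered reads were not used for these tests. The only test over genes run on recovered reads was limma-voom. Among the genes named from the other lists, 4 that were not called changed sign: Mapkapk2 (-0.11 with a common total, -0.073 after quantile normalization), Egln1 (-0.073 after quantile normalization), Hif1a (-0.19 and -0.036, and -0.13 to 0.13 with a library left out) and Furin (0.035 without FITChigh replicate 2, in a range of -0.27 to 0.035 with a library left out). Depth limits Vegfc and Pgf, at 3 and 2 reads over FITChigh.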
